A study of Oryza sativa Japonica Group with 12 samples.

Results

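The genes described here are those that stood higher in the null segregant line 67.5 of a rice transformation experiment than in its 3 companion lines. A gene was taken as a member when the mean log2 signal of null 67.5 exceeded the mean of each of the other 3 lines by 0.5 or more, while the means of the 2 lines of the other couple differed by less than 0.2. Only probe sets paired with a single gene were used. Of 24161 such probe sets, 39 met the rule (0.161%), and 10 of the 39 carry an informative gene name. The 4 line means chose the members, so the height of null 67.5 over the other lines is given as a description and is not tested.

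RNA came from the stem bases of 6-day-old plantlets, the zone in which rice forms its crown roots. All 4 lines were in the crl1 mutant of cultivar Taichung 65, so the controls carry this mutation too. OE 67.1 (line 67.1.11.7) and OE 67.5 (line 67.5.9.12) overexpressed the transcription factor gene OsbHLH044 from the construct pC5300.OE-OsbHLH044, whose promoter the labels do not name. Null 67.1 (line 67.1.1.5) and null 67.5 (line 67.5.13.4) were their respective sister lines without the T-DNA. Plantlets grew for 5 days on wet filter paper and then for 24 h in flasks of medium. Each line had 3 arrays from 3 independent repetitions, each a pool of 8 to 12 stem bases, and the overexpressing and null genotypes of each couple are each represented by a single line. Array medians of the log2 signal ran from 4.34 to 4.39. Precision is limited by the 3 arrays per line. The knotted-like homeobox genes that mark the shoot apex and stem base were measured on all lines, with summed linear signals of 231 to 245 in null 67.1, 223 to 233 in OE 67.1, 235 to 264 in null 67.5 and 223 to 249 in OE 67.5. OSH1, a gene of the undifferentiated shoot meristem (LOC4333973), had means from 5.30 in OE 67.1 to 5.57 in null 67.5. OsbHLH044 and CRL1 were not analysed here, so the targeted gene gives no check of the line labels.

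A null segregant descends from a transformed plant but has not inherited the T-DNA, and it serves as the control grown from the same parent. Such a pair of sisters is expected to share most of its genome and its history in tissue culture, while other segregating differences can still separate the sisters. A gene that is high in a null line alone enters the comparison of that couple as a lower level in the overexpressing line. The named members serve in metal chelation and ion supply, sugar and pigment metabolism, protein folding, indole metabolism, the cell periphery and messenger RNA splicing.

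With the same rule applied to each line in turn, null 67.5 had the most genes set apart upward. The counts of genes high in a single line were 39 for null 67.5, 21 for OE 67.5, 10 for OE 67.1 and 5 for null 67.1. Genes low in a single line numbered 4 for null 67.5, 17 for OE 67.5, 5 for OE 67.1 and 2 for null 67.1. The limit of 0.2 was passed by 22161 probe sets when a 67.5 line was set apart and by 19473 when a 67.1 line was, so the pools behind these counts differed. On all arrays null 67.5 thus departed mainly upward, whereas the departures of its overexpressing sister went both ways. Without its repetition 3 null 67.5 had 26 genes high alone, and the other lines were not recounted without an array. Null 67.5 also had the largest median SD over all single-gene probe sets, 0.13 against 0.10 to 0.12.

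**Figure D1:**
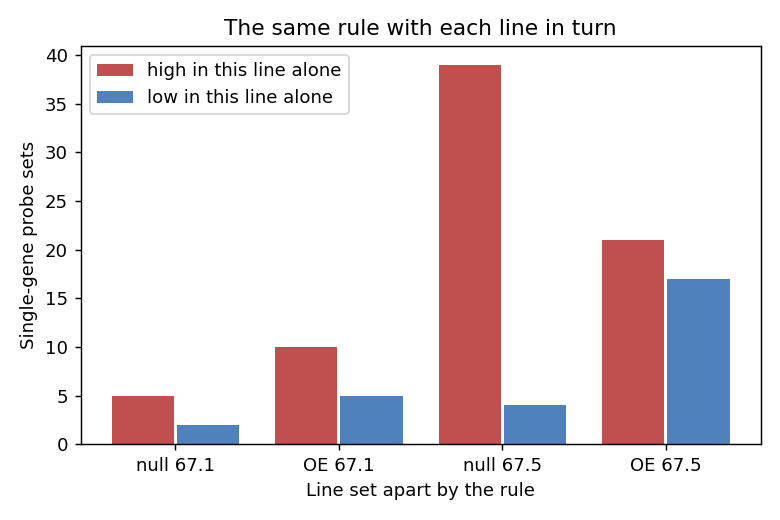
Number of single-gene probe sets (vertical axis) that the rule sets apart in each of the 4 lines (horizontal axis), high in red and low in blue. Null 67.5 has 39 high and 4 low, and the other lines have at most 21 high.

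Among the 39 members the margin of null 67.5 over the highest other line mean ran from 0.51 to 1.75 with a median of 0.65, which corresponds to 1.42-fold to 3.37-fold with a median of 1.57-fold. Only 3 members had a margin of 1 or more. The mean signal in null 67.5 lay between 3.25 and 7.72, and the means over the 67.1 couple lay between 2.54 and 7.05. For 3 members, LOC4337818, LOC4342135 and ASMT1, every array was below its array median, where RMA compresses differences. In these pooled tissues a larger number of cells of a kind and more RNA per cell cannot be told apart.

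The height of null 67.5 was unequal over its 3 arrays. Relative to each gene's mean over the 6 arrays of couple 67.1, the median of the 39 members was 0.61 on the array of repetition 1, 0.60 on that of repetition 2 and 1.03 on that of repetition 3. The medians of the 9 other arrays lay between -0.05 and 0.03. Repetition 3 was the highest of the 3 null 67.5 arrays in 32 members, repetition 2 in 6 and repetition 1 in 1. The median SD within null 67.5 was 0.32 for the members and 0.13 for all single-gene probe sets, while within the other lines the members had medians of 0.14 to 0.18.

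**Figure D2:**
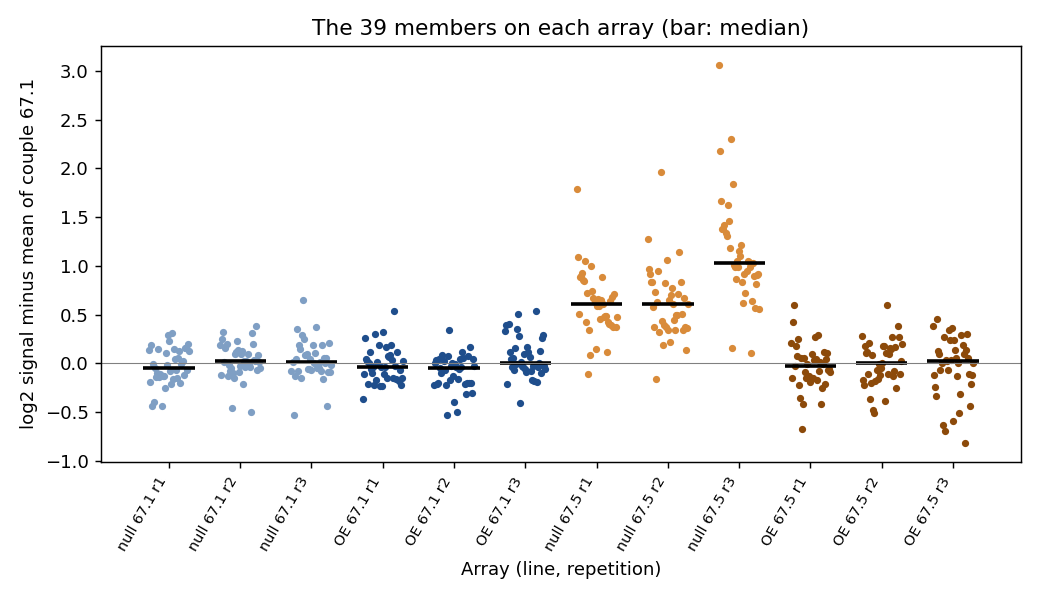
Each point is 1 of the 39 members on 1 array, as log2 signal minus the gene's mean over the 6 arrays of couple 67.1 (vertical axis), with the arrays by line and repetition on the horizontal axis; black bars are medians. The null 67.5 medians are 0.61, 0.60 and 1.03, and the other 9 lie close to 0.

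When the array of null 67.5 repetition 3 was left out, 26 genes met the rule, of which 22 were among the 39. The 17 members that left include 7 of the 10 named ones: NAS2, CASPL1D1, PSY2, SWEET2B, ERDJ3A, HSP81-1 and CIPK23. Without the array of repetition 1 the number was 75, including 38 of the 39, and without that of repetition 2 it was 55, including 33. In 30 members all 3 null 67.5 arrays lay above all 9 other arrays, which over all single-gene probe sets was so for 1.35%; the rule used the same contrast, so nothing is read from this count. In 6 members 2 of the 3 null 67.5 arrays lay above all others and in 3 members a single array did.

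Because all arrays entered the rule, the choice was repeated with 1 repetition left out of all 4 lines, and the left-out arrays were then looked at. This alternative was chosen after seeing the data, and of the genes it gave, 27, 28 and 11 were among the 39 members with repetition 1, 2 and 3 left out. Choosing on repetitions 1 and 2 gave 19 genes, and on the arrays of repetition 3 null 67.5 was the highest of the 4 lines in 17 of them (89.5%), against 26.6% of all single-gene probe sets. It was higher by 0.5 or more in 8 (42.1%), against 0.948%. Choosing on repetitions 2 and 3 gave 70 genes, of which null 67.5 was highest on the left-out arrays in 48 (68.6%, against 18.8%) and higher by 0.5 or more in 16 (22.9%, against 0.36%). With repetition 2 left out 49 genes were chosen, with null 67.5 highest in 39 (79.6%, against 29%) and by 0.5 or more in 8 (16.3%, against 0.575%). The median margin on the left-out arrays was 0.18, 0.24 and 0.42 for repetitions 1, 2 and 3, against 0.60, 0.65 and 0.60 on the arrays used to choose. Null 67.5 was thus highest on the left-out arrays in most of the genes chosen each time, with a smaller margin. Each left-out set held only 1 array per line, so genes that vary together on an array do not count as separate observations of the line. The 39 members themselves were chosen by the 4 line means of all arrays. These shares therefore describe the genes chosen each time and are no test of the 39 members. The shares over all single-gene probe sets were not matched for spread between arrays and were not held to the limit of 0.2.

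**Figure D3:**
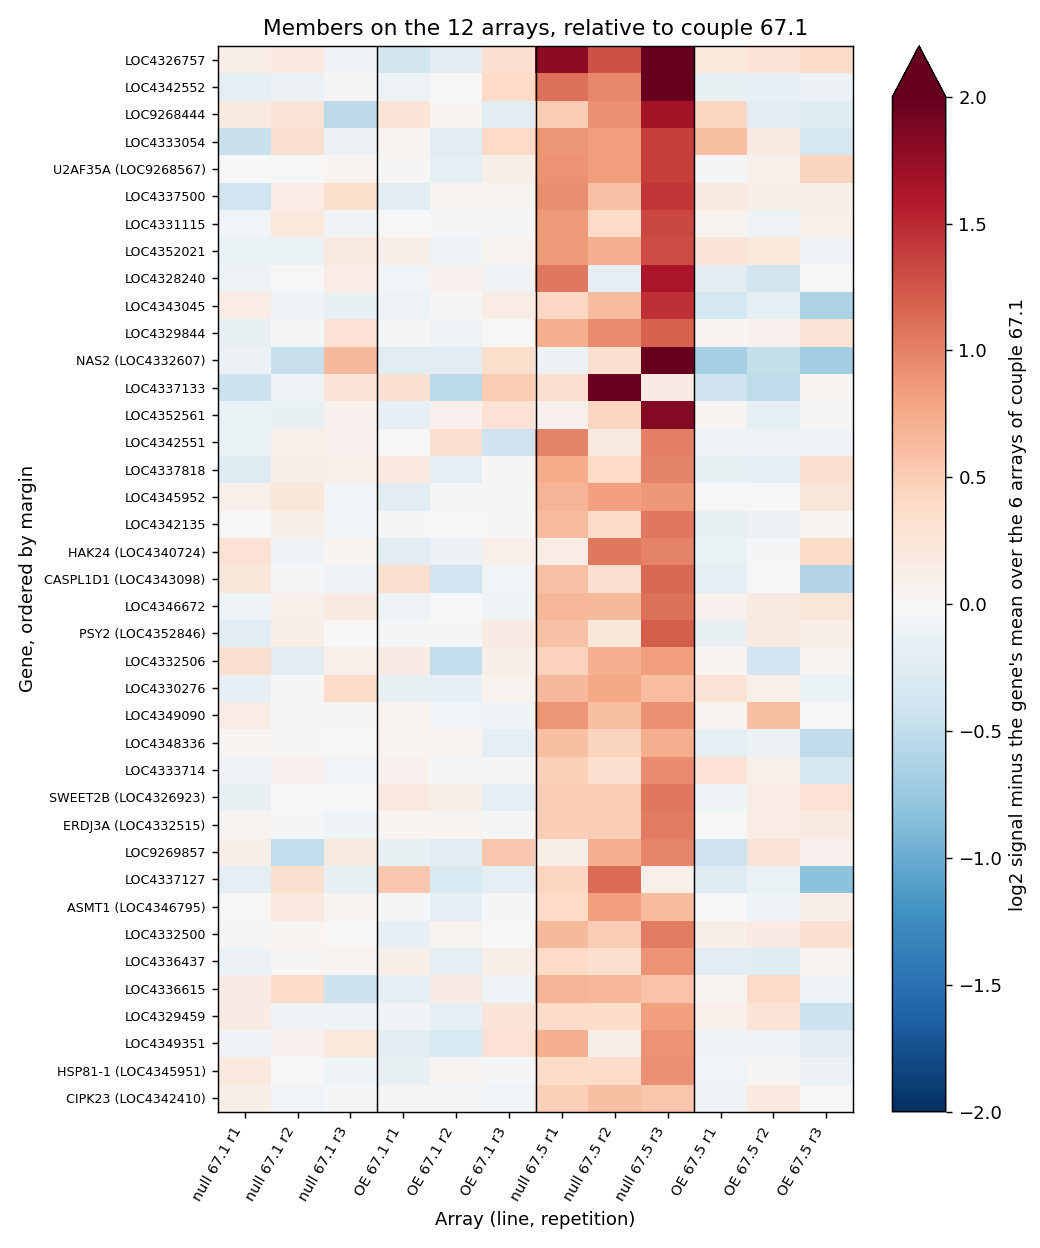
Log2 signal minus the gene's mean over the 6 arrays of couple 67.1 (colour) for the 39 members (vertical, ordered by margin) on the 12 arrays (horizontal, by line and repetition); values above 2 share the darkest red. The 3 null 67.5 columns are red for nearly all members, and repetition 3 is the darkest in 32 of them.

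The largest margins belonged to genes without an informative name. LOC4326757 had log2 signals of 5.50, 4.98 and 6.77 in repetitions 1, 2 and 3 of null 67.5, against 3.92, 3.99 and 4.09 in OE 67.5, 3.85, 3.90 and 3.63 in null 67.1 and 3.34, 3.49 and 4.04 in OE 67.1. Its margin was 1.75, and it crossed the array median in null 67.5 alone. LOC4342552 followed with a margin of 1.32, from 4.82, 4.69 and 5.91 in null 67.5 against 3.54 to 4.12 on the other 9 arrays. LOC9268444 had 5.71, 6.12 and 6.88 in null 67.5, and its other arrays reached 5.63, so the arrays were separated by only 0.08. The next in order, with margins from 0.89 down to 0.81, were LOC4333054, U2AF35A, LOC4337500, LOC4331115, LOC4352021, LOC4328240 and LOC4343045, followed by LOC4329844 and NAS2, also at 0.81. In all of these but LOC4328240 and NAS2, the 3 null 67.5 arrays lay above all others. LOC4328240 had 5.15, 3.93 and 5.72, and its other arrays reached 4.24. The members U2AF35A, LOC4331115, LOC4352021, LOC4343045, LOC4329844, LOC4337818 and LOC4348336 met the rule whichever of the 12 arrays was left out.

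Among genes of metal and ion supply, NAS2 (LOC4332607), a nicotianamine synthase gene whose product makes the metal chelator nicotianamine, was a member through a single array. Its signals in null 67.5 were 3.99, 4.43 and 6.40, a mean of 4.94 ± 1.29 (SD, n = 3). It had 3.99, 3.65 and 4.76 in null 67.1, 3.88, 3.89 and 4.45 in OE 67.1, and 3.43, 3.63 and 3.41 in OE 67.5. Repetition 3 was thus the highest in null 67.5 and in both 67.1 lines, the lines overlapped, and without null 67.5 repetition 3 the gene did not meet the rule. Its direct neighbour NAS1 (LOC4332608) had a margin of 1.15 but differed by -0.22 between OE 67.1 and null 67.1 and was therefore no member; its null 67.5 signals were 4.51, 5.97 and 7.73. Whether the probe sets of these related genes respond to each other's transcripts was not tested. HAK24 (LOC4340724), of the HAK family of potassium transporters, had 3.80, 4.71 and 4.64 in null 67.5 against 3.42 to 4.01 elsewhere, so repetition 1 overlapped the other lines. CIPK23 (LOC4342410), a kinase that works with calcineurin B-like calcium sensors and that in Arabidopsis activates potassium and nitrate transport, was close to the limit of the rule with a margin of 0.51. Its 3 null 67.5 arrays were among the most even of the members, at 5.21, 5.34 and 5.29, all above the highest other array at 4.94.

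Among genes of sugar, pigment and indole metabolism, SWEET2B (LOC4326923), of the SWEET family of sugar transporters, had 5.11, 5.11 and 5.67 in null 67.5 and 4.43 to 4.91 on the other 9 arrays. PSY2 (LOC4352846) encodes a phytoene synthase, the entry enzyme of carotenoid synthesis. Its null 67.5 arrays read 5.94, 5.57 and 6.56, and the highest other array read 5.53, a separation of 0.04. The other phytoene synthase genes were no members: PSY1 (LOC4342137) had a mean of 8.04 in null 67.5 and 7.74 to 7.92 elsewhere, and PSY3 (LOC4347813) was at 3.91 in null 67.5 and 3.96 to 4.32 elsewhere. ASMT1 (LOC4346795), of the final step of melatonin synthesis, had 3.41, 3.85 and 3.65 in null 67.5 against 2.81 to 3.21 on the other arrays, all below the array medians.

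The protein folding members were ERDJ3A (LOC4332515), a DnaJ co-chaperone of the endoplasmic reticulum, and HSP81-1 (LOC4345951), a member of the HSP90 chaperone family. ERDJ3A had 4.77, 4.77 and 5.32 in null 67.5 and between 4.20 and 4.47 on the 9 other arrays. For HSP81-1 the null 67.5 arrays were at 5.37, 5.36 and 5.92 and the highest of the others at 5.20. Both genes had the same shape, with repetitions 1 and 2 about equal and repetition 3 above them, and neither met the rule without repetition 3 of null 67.5.

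CASPL1D1 (LOC4343098) belongs to the CASP-like membrane proteins, a family related to the proteins that organise the Casparian strip. Its null 67.5 signals of 5.96, 5.71 and 6.52 cleared the highest other array, 5.70 in OE 67.1, by 0.01. U2AF35A (LOC9268567) encodes the small subunit of the U2 auxiliary factor, which takes part in recognising the 3' splice site. Of the named members it had the largest margin, 0.86, with 4.36, 4.30 and 4.84 in null 67.5 against 3.43, 3.56 and 3.91 in OE 67.5 and 3.26 to 3.58 in the lines of couple 67.1.

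**Figure D4:**
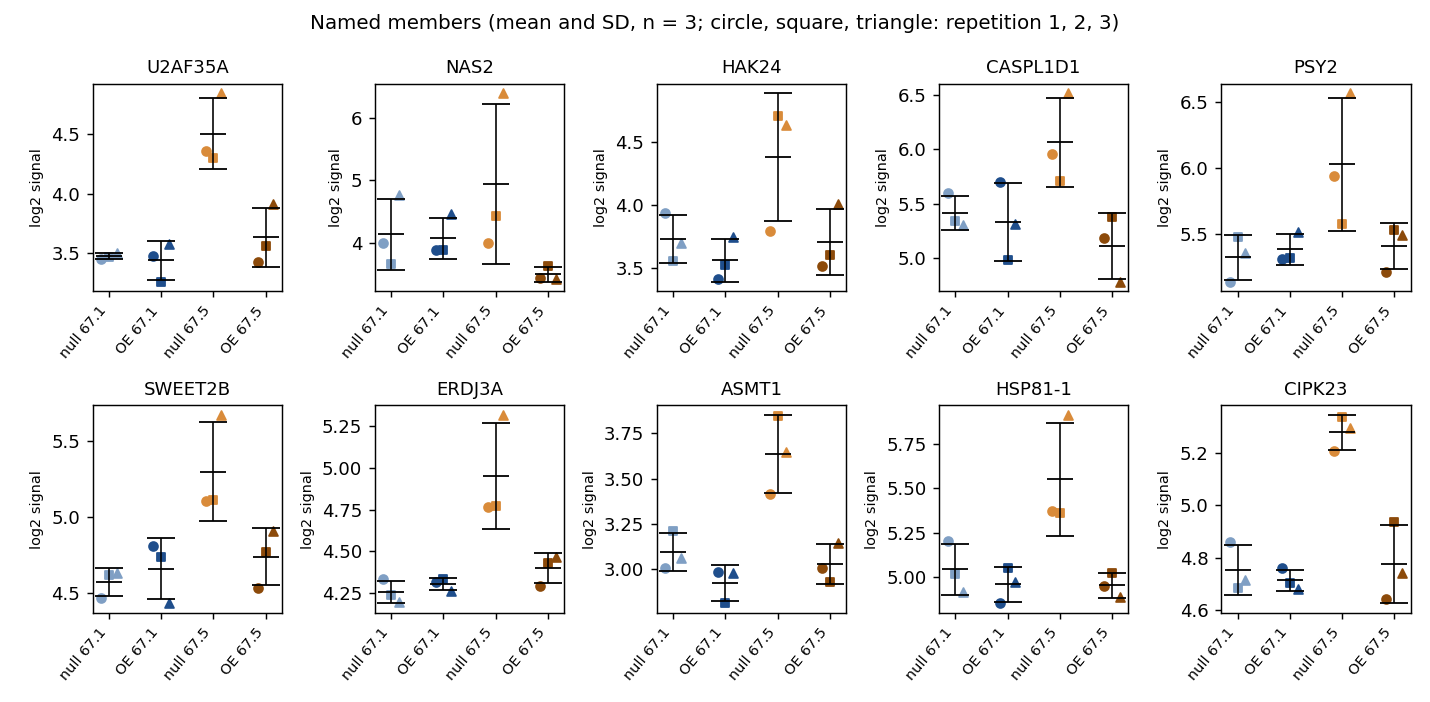
Log2 signal (vertical axes, which differ and do not start at 0) of the 10 named members in the 4 lines; symbols are single arrays by repetition, and bars are the mean and SD of 3 arrays. The null 67.5 arrays lie above all others in every panel except NAS2 and HAK24.

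At the edge of the rule, the members with the smallest margins were LOC4349351, HSP81-1 and CIPK23, each at 0.51. Just outside it were CML18 (LOC9266860) with a margin of 0.496, PIP1;3 (LOC4331194) with 0.494 and LOC4342958 with 0.492. PIP1;3, an aquaporin gene, had 3.88, 4.12 and 5.25 in null 67.5, again with its high value in repetition 3. The number of genes was 85 with a margin of 0.4, 22 with 0.6 and 3 with 1, so the line between members and other genes does not mark a gap in the data.

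A further contrast sets OE 67.5, the overexpressing sister, against the mean of the 2 lines of couple 67.1. The rule did not use this difference itself, but it holds each of these lines at least 0.5 below null 67.5. With limma over all 24251 annotated probe sets, 2978 (12.3%) passed an adjusted p of 0.05 in this contrast, 1759 higher (7.25%) and 1219 lower (5.03%) in OE 67.5. None of the 39 members passed, and 2 had an unadjusted p under 0.05 in limma, against 35.2% of all tested probe sets. The difference was positive for 21 members and negative for 18. It ran from -0.61 to 0.29 with a median of 0.02, and the median of all tested probe sets was also 0.02. The rule caps OE 67.5 at 0.5 below null 67.5 and so keeps out genes raised in both 67.5 sisters. The shares of the members and of all tested probe sets are therefore not like for like. The members were also measured with less precision, with a median SE of 0.152 against 0.0947 for all tested probe sets.

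Since the spread of null 67.5 enters that SE, the contrast was also fitted without the 3 null 67.5 arrays, a choice made after seeing the data. The median SE of the members then was 0.107, and 1 member passed, LOC4343045, which was lower in OE 67.5 by -0.395 ± 0.107 (log2 difference ± SE, limma adjusted p = 0.0335), while 15% of all probe sets passed. LOC4343045 also passed without null 67.5 repetition 3 alone (limma adjusted p = 0.0347). Its OE 67.5 arrays were at 3.37, 3.52 and 3.09, below all 6 arrays of couple 67.1, which lay between 3.57 and 3.87. In the fit on all arrays its adjusted p was 0.129.

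For 28 of the 39 members the 95% interval of this difference lay within 0.5 on either side of 0. The same share over all tested probe sets was not computed, so nothing is read from this count. The narrowest interval among the named members was that of CIPK23, with a difference of 0.04 (-0.13 to 0.21). Intervals were widest for NAS2, at -0.61 (-1.44 to 0.22), and for LOC4337133, at -0.29 (-0.996 to 0.41), and a difference of the size of the rule's margin lies inside both. LOC4326757 had the highest estimate, 0.29 (-0.29 to 0.87), and LOC4348336 had -0.26 (-0.47 to -0.05, limma adjusted p = 0.0803). A member that missed the threshold is not shown to be equal in OE 67.5 and couple 67.1. The 2978 calls over all probe sets were themselves unstable, falling to 30 without OE 67.5 repetition 3, so the share of 12.3% rests strongly on that array.

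**Figure D5:**
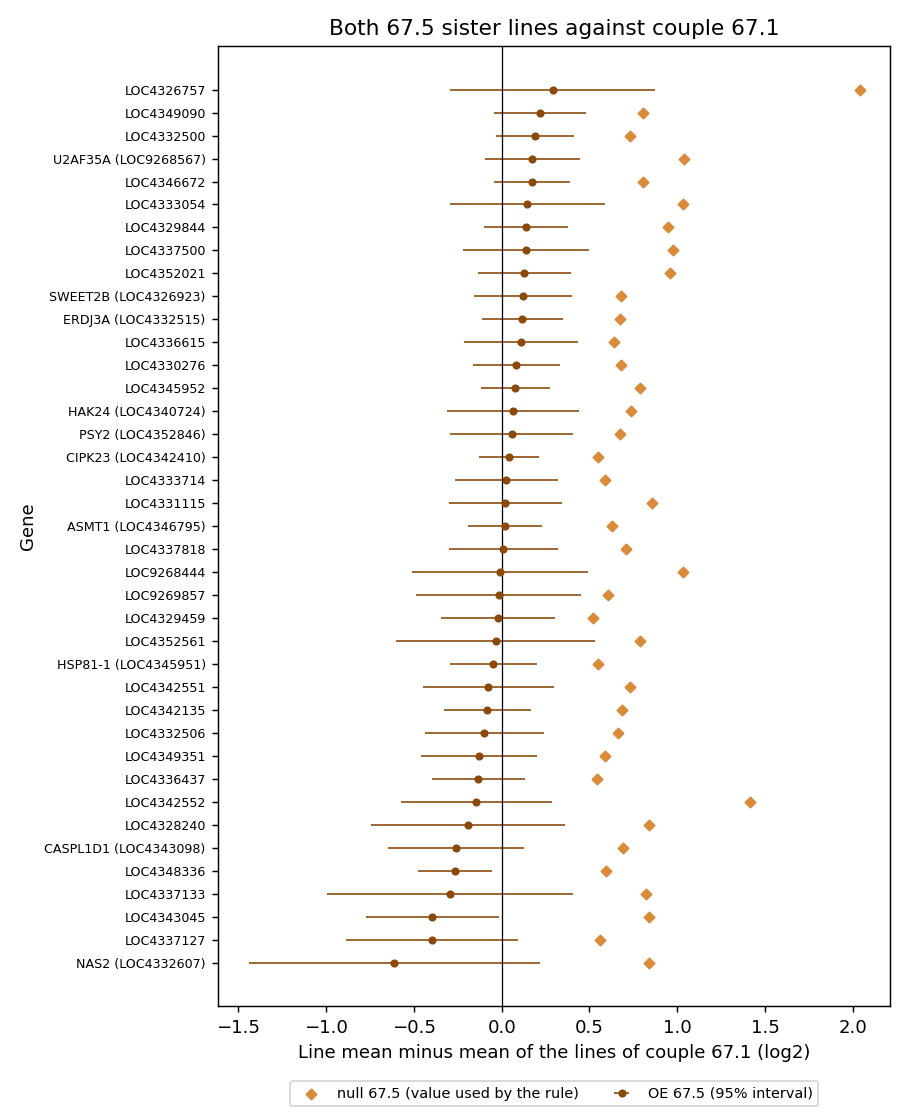
Line mean minus the mean of the lines of couple 67.1 (log2, horizontal axis) for each member: OE 67.5 with its 95% interval from the fit on all 12 arrays (dots and lines) and null 67.5 (diamonds, the value used by the rule). The OE 67.5 estimates lie between -0.61 and 0.29.

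The members were placed in the gene order of assembly ASM3414082v1, which was used for order only. A total of 9 of the 39 members had another member within 10 measured genes. How often 39 genes placed at random would do so was not computed, so no clustering is read from this count. The directly adjacent pairs were LOC4342551 with LOC4342552, and HSP81-1 with LOC4345952. The null 67.5 signals of LOC4342551 were 5.72, 4.91 and 5.72, so its repetition 2 overlapped the other arrays, unlike that of LOC4342552. LOC4345952 had 5.76, 5.91 and 5.94 against 4.85 to 5.33 elsewhere, more even than its neighbour HSP81-1.

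The members LOC4337127 and LOC4337133 had 2 measured genes between them, and all 4 shared a pattern over the null 67.5 arrays that differed from most other members in not having repetition 3 highest. LOC4337133 had 3.85, 5.48 and 3.68 in null 67.5 against 2.98 to 4.02 on the other arrays. LOC4337127 had 4.39, 5.10 and 4.07 against 3.15 to 4.50. In both, only repetition 2 of null 67.5 lay above all other arrays, and neither met the rule without it. Of the genes between, LOC4337130 had 6.79, 7.77 and 6.55 and a margin of 0.71, and it was kept out by its difference of 0.37 between the 67.1 lines. LOC4337129 had 4.23, 4.25 and 3.25, with a mean below that of OE 67.1, whose repetition 1 read 5.17. The members LOC4332500, LOC4332506 and ERDJ3A also lay near each other, with 3 and 6 measured genes between them. None of these 9 intervening genes passed for null 67.5 against the mean of the other 3 lines, and their differences lay between -0.08 and 0.11.

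Outside the members, null 67.5 was set against the mean of the other 3 lines to see what else moved in the same pathways. That mean includes both overexpressing lines, so a gene lower in both of them also gains a positive difference. Over all tested probe sets 150 (0.619%) passed by limma, 131 (0.54%) higher and 19 (0.0783%) lower in null 67.5. In the 21 lists of pathways and tissue markers 15 genes that are no members passed, all higher in null 67.5. The lists were chosen with earlier results of these data known and share some genes, so nothing is read from this count. Without null 67.5 repetition 3 the total over all probe sets was 37, and 12 of the 15 list genes lost their call, the exceptions being TIP1;2, ICL and Nrx1-1. For these 3 genes the margin over the highest other line, null 67.1, was 0.82, 0.53 and 0.57. Both overexpressing lines lay below null 67.1 in each of them. For TIP1;2 the lowest null 67.5 array, 5.70, lay below the highest null 67.1 array, 5.74.

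Of the 46 measured genes of iron and nicotianamine 1 was a member (NAS2), and of the other 45 only NAS3 (LOC4344361) passed, higher by 0.85 ± 0.13 (± SE), while 27 of the 45 had a positive difference. NAS1 had a difference of 1.78 ± 0.50 and did not pass (limma adjusted p = 0.145). The median over the list was 0.03, against 0.00 over all tested probe sets (-0.000487). No further gene of the 71 for potassium and other mineral ion transport passed beside the member HAK24, with a median of 0.06. In the 28 aquaporin genes, which held no member, the tonoplast channel gene TIP1;2 (LOC4324303) was higher by 1.74 ± 0.18 and PIP1;1 (LOC4330248) by 0.45 ± 0.09, and the median was 0.12. The call of PIP1;1 held in 3 of the 12 fits that left out an array.

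Calcium sensors and kinases comprised 89 measured genes with CIPK23 as the member, and CML1 (LOC4327351) was higher by 1.02 ± 0.18 and CML18 by 0.74 ± 0.14. Both encode calmodulin-like proteins. The CML1 means were 6.05 in null 67.5 and 5.65 in null 67.1, against 4.82 in OE 67.1 and 4.65 in OE 67.5. In the list of sugar transport and trehalose, with 52 genes and SWEET2B as the member, the hexokinase gene HXK4 (LOC4326776, also listed as HXK8) was higher by 0.44 ± 0.07 and the trehalose phosphatase gene TPP8 (LOC4340524) by 0.65 ± 0.14. Among 49 heat shock genes, HSP81-1 being the member, the small heat shock protein gene HSP17.9A (LOC4332357) was higher by 0.53 ± 0.11 and the heat stress factor gene HSFB2C (LOC4347637) by 0.55 ± 0.09. The medians of these lists were 0.03, 0.03 and 0.05. TPP8 kept its call in 1 and HSP17.9A in 3 of the 12 fits that left out an array, and CML18 in 7.

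Lists without a member held the further calls. ICL (LOC4343441), the isocitrate lyase gene of the glyoxylate cycle, was higher by 1.28 ± 0.09 among 8 genes of that cycle and of reserve mobilisation. Of 25 thioredoxin and nucleoredoxin genes, Nrx1-1 (LOC4333075) was higher by 0.88 ± 0.10 and Trxh1 (LOC4342593) by 0.67 ± 0.11. Of 39 antioxidant genes, the peroxidase gene PRX112 was higher by 0.67 ± 0.14 and the glutathione transferase gene GSTZ5 (LOC4332455) by 0.36 ± 0.07. PRX112 kept its call in 3 and GSTZ5 in 1 of the 12 fits without an array. In 8 of the 15 passing list genes, NAS3, TIP1;2, ICL, CML1, Nrx1-1, Trxh1, TPP8 and HSP17.9A, the mean of OE 67.1 was below that of null 67.1 by more than the 0.2 that the rule allows. For TIP1;2, CML1, Trxh1 and TPP8 the null 67.5 arrays did not all lie above all other arrays. No gene passed, in either direction, in the lists for cell death and proteases (36 genes), defence and phytoalexins (35), jasmonate (40), abscisic acid and dehydration (97), cell wall (96), auxin (65), cytokinin (40) or the transcription factor families (135 genes beside the member U2AF35A, which is also listed as a C3H zinc finger gene). With the list of mineral ion transport, these 9 lists held 614 genes other than members, of which 77 had an unadjusted p under 0.05 in limma, while 12.2% of all tested probe sets did. The lists cover only genes that carry a name.

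Markers of green tissue, none of them a member, were also higher in null 67.5. The summed linear signal of 11 photosynthesis genes was 2471 to 2758 on the null 67.5 arrays, against 2029 to 2214 in null 67.1, 1987 to 2172 in OE 67.1 and 2025 to 2232 in OE 67.5, so the null 67.5 arrays lay above all others. All 11 genes were higher in null 67.5 than in the mean of the other lines, with a median of 0.30, and the photosystem gene PSB28 (LOC4326537) passed, at 0.45 ± 0.09; it kept its call in 7 of the 12 fits that left out an array. Among 19 seed tissue markers, ICL included, 7 were higher and the median was -0.02. The summed seed marker signal was 284 to 309 in null 67.5, 263 to 274 in null 67.1, 217 to 238 in OE 67.1 and 204 to 219 in OE 67.5. The null 67.5 arrays thus lay above all others in this sum too, although only 7 of the 19 genes were higher. The sum includes ICL, with log2 means of 6.71 in null 67.5, 6.18 in null 67.1, 5.34 in OE 67.1 and 4.79 in OE 67.5. It was not computed without ICL, so no rise of seed markers as a group is read from it. For 19 root markers 10 were higher, TIP1;2 passed, and the sums overlapped, at 2696 to 2959 in null 67.5 against 2514 to 2839 in null 67.1 and 2387 to 2765 in OE 67.5, with 2267 to 2585 in OE 67.1. The part of these tissues in the heights of the members was not tested.

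Families of the named members were looked up after the values were seen. The 3 nicotianamine synthase genes are the member NAS2 with NAS1 and NAS3, both positive in null 67.5, and NAS3 passed as given above. No other family held a call outside its member. Among 24 genes of DnaJ proteins, endoplasmic reticulum chaperones and disulfide isomerases ERDJ3A was the only member, and the median was 0.04. Of 11 carotenoid genes none other than PSY2 was a member, and the same held for the 6 genes of melatonin and serotonin synthesis, the 25 CASP and CASP-like genes, the 14 SWEET genes, the 25 HAK genes and the 29 CIPK genes. Since each family was looked up for the member it holds, nothing is read from these counts.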

How the data were processed

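Stem base RNA of 4 rice lines was labelled with biotin and hybridised to 1-colour Affymetrix arrays, 12 in all, per the labels' protocols. The deposited values are log2 signals per probe set after RMA, the only tool in the submitters' processing notes; its version is not given in the sources used here. This method makes the array distributions alike, so differences in total RNA cannot be seen. Of 36643 probe sets, 24251 were paired with a gene in the platform annotation, 24161 of them with 1 gene and 90 with several. Gene names came from the table of assembly ASM3414082v1. No sequence of the members was used here.

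Lines and repetitions were taken from the labels. Line means were estimated from all 12 arrays by limma (version 3.58.1, under R 4.3.3; eBayes after lmFit), leaving 8 residual degrees of freedom. Tests were two-sided, p-values were adjusted by Benjamini-Hochberg across the 24251 annotated probe sets, and calls required an adjusted p under 0.05. The fit and the rule were tested on simulated data. Named genes were all members with an informative name, the 10 largest margins, the 3 genes on either side of the margin, neighbouring members, and up to 2 passing genes per list and direction. HSP17.9A and HSFB2C are listed in the table also as hsp17.9 and HSF24. The members and lists were chosen with earlier results of these data known. Promoter motifs, although planned, were not analysed. Replicates are repetitions the labels call independent.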

Additional observations from a re-analysis of the deposited data

Results flagged for a closer look

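The rule was also applied to the probe sets left out of the description above, those with no gene or several genes in the platform annotation. Of these 12482 probe sets, 35 met it, a signal in data that the comparisons did not use. All 35 had no gene in the annotation. Their margins ran from 0.51 to 1.25 with a median of 0.60, and in 8 of the 35 all 3 null 67.5 arrays lay above all 9 other arrays. Whether array controls are among them was not tested.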

How the results depend on the processing

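The number of members, 39, was 85, 22 and 3 with margins of 0.4, 0.6 and 1, 61 with no limit within couple 67.1, 74 over all probe sets of the table and 25 above the median level. Without 1 array it ranged from 26 (without null 67.5 replicate 3) to 75 (without null 67.5 replicate 1), and, in an alternative chosen after seeing the data, from 19 to 70 without 1 replicate number in all lines. With a limit of 0.1 or 0.3, medians or a further quantile normalization it stayed between 26 and 47, but the genes changed: 23 of the 39 were among the 35 chosen with medians and 32 among the 38 after quantile normalization. The count of 30 members with separated arrays was 28 after quantile normalization and 30 to 33 without an array. For OE 67.5 against couple 67.1, the 2978 calls were 1419 after quantile normalization, 1322 against null 67.1 alone, 201 against OE 67.1 alone, and 30 to 3965 without an array, the lowest being 30 without OE 67.5 replicate 3; it was 664 without OE 67.5 replicate 2, 776 and 942 without null 67.1 replicates 1 and 2, and 1502 and 1020 without OE 67.1 replicates 1 and 2. The members called there were 0 under every planned setting except 1 without null 67.5 replicate 3, and 1 with the null 67.5 arrays left out of the fit; no named member passed in the fit on all arrays. For null 67.5 against the other lines, the 150 calls were 99 with all probe sets and 37 to 423 without an array, with 37 without null 67.5 replicate 3, 423 without null 67.5 replicate 1, 83 without null 67.1 replicate 1, 89 without null 67.5 replicate 2 and 97 without OE 67.5 replicate 1. The cause of these shifts was not tested.

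Arrays of equal repetition number did not all deviate together: the correlations of their deviations ran from -0.251 to 0.422 over 18 pairs. All 6 pairs of repetition 3 were above 0.1, at 0.161 or more, as were 4 of 6 in repetition 1 and 1 of 6 in repetition 2, and 7 of 12 arrays correlated best with their own number. Repetition 3 thus shared deviations across the lines, and the fits reported have no term for it. With the replicate block the calls were 5452 for OE 67.5 against couple 67.1 and 252 for null 67.5 against the other lines, and still 0 members were called.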
